A study of Mus musculus with 35 samples.

Results

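The lung response to inhaled styrene was followed here through 7 genes that encode enzymes acting on reactive epoxides and other electrophiles. They were the epoxide hydrolase gene Ephx1 and the glutathione transferase genes Gsta2, Gsta4, Gstm1, Gstm2, Gsto1 and Gstt1. The genes were found by symbol in the annotation of the array, which listed 12 probe sets for them among the 28898 probe sets that carry a single gene symbol. Each of the 17097 genes in all was represented by its brightest probe set, taken by the mean over the 35 arrays, and the remaining probe sets of Gsta2, Gstm1 and Gsto1 served as a check.

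Whole-lung RNA of adult male wild-type C57Bl/6 mice from Taconic was measured on 35 Affymetrix mouse genome arrays. Animals breathed clean air (0 ppm) or 1, 5, 10, 20, 40 or 120 ppm styrene for a single period of 6 h, with 5 arrays per dose, and were killed on the next morning. Each group thus differed from the others in dose, with strain, sex, genotype, tissue and time of sampling in common. The array titles at 1 ppm and 5 ppm give the animal number 15 once each (1 ppm replicate 5 and 5 ppm replicate 1), and whether these are separate animals is not settled. The labels call the 5 arrays of a dose biological replicates. Values are the log2 signals that the authors deposited, and "rose" and "fell" are used for limma p-values, Benjamini-Hochberg adjusted over all 17097 genes, that are under 0.05.

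Styrene is oxidised in the lung, chiefly by cytochrome P450 enzymes of club cells, to styrene oxide, a reactive epoxide. Microsomal epoxide hydrolase adds water to the epoxide and yields styrene glycol, whereas glutathione transferases join it to the thiol of glutathione, the first step towards the mercapturic acids that leave the body in urine. The cytosolic transferases form classes named by Greek letters, among them alpha (Gsta genes), mu (Gstm), omega (Gsto) and theta (Gstt), each with its own range of substrates.

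The arrays carried the transcripts of lung. The surfactant gene Sftpc lay between 13.78 and 13.91, the club cell gene Scgb1a1 between 13.49 and 13.97 and the alveolar type 1 gene Ager between 13.21 and 13.68 on all 35 arrays. On 4 arrays the mean of 14 hepatocyte markers was above 6, at 8.11 and 7.05 (0 ppm replicates 3 and 4), 8.52 (1 ppm replicate 2) and 7.66 (20 ppm replicate 2), against 3.71 to 5.09 on the others. The albumin gene Alb read 10.47 to 11.75 on those 4 arrays. The 120 ppm arrays stood apart from the rest. The spiked poly-A controls read 7.73 to 8.67 there and 5.98 to 6.89 at 0 to 40 ppm, and the highest nonspecific control read 6.71 to 7.36 against 4.57 to 6.43. The part of these differences between arrays in the 120 ppm results was not tested.

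The means of the 7 genes over the 35 arrays ran from 7.45 for Gsta2 (percentile 69.5 of all genes) to 11.9 for Gsto1 (percentile 99.1). A probe set's level depends on its probes as well as on its transcript, so that levels are compared below within a gene and not between genes.

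From 5 ppm upward the 7 genes parted into 3 patterns. Gsta2 and Gsto1 rose at 5, 10, 20 and 40 ppm, Gsta2 by the probe set that stands for it, whose rise took part in its choice. The other Gsta2 probe set fell at 10, 20 and 40 ppm. Ephx1, Gstm1, Gstm2 and Gstt1 fell at 10, 20 and 40 ppm, by 1.30-fold to 1.81-fold. Gsta4 passed the threshold at 120 ppm alone, where it fell 3.09-fold. The fall of Gstm1 at 120 ppm was 2.22-fold and that of Gstm2 1.46-fold, while Ephx1 and Gstt1 lay within 0.10 log2 units of clean air. Gsta2 was 0.06 below clean air at 120 ppm by the probe set that stands for it, and its other probe set fell there by 1.43.

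**Figure D1:**
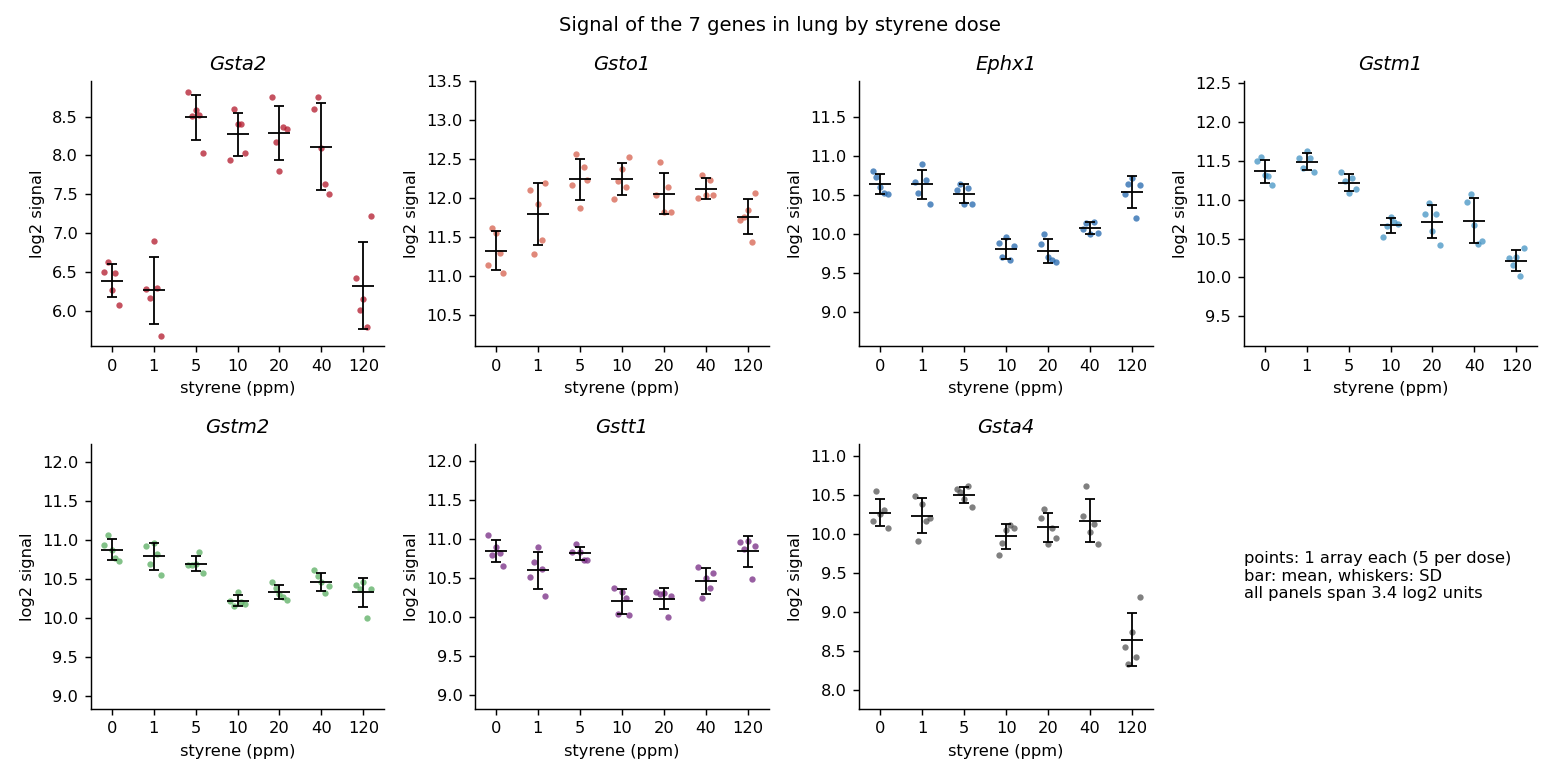
Log2 signal of each gene (vertical axis) on every array by styrene dose in ppm (horizontal axis), with points for arrays, horizontal bars for means and whiskers for SD (n = 5 per dose); every panel spans the same width. Gsta2, by its brighter probe set, stands between 7.51 and 8.82 at 5 to 40 ppm and between 6.08 and 6.63 in clean air. Gsta4 drops to 8.33 to 9.19 at 120 ppm alone.

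At 1 ppm none of the 7 genes passed the limma threshold, and 0% of all genes did. At an unadjusted p under 0.05, 1190 genes did so at this dose, and the smallest limma adjusted p over all genes was 0.105. At 5 ppm 2 of the 7 rose and none fell, where 1.16% of all genes changed. The counts were 2 risen and 4 fallen at each of 10, 20 and 40 ppm, against 11.8%, 13.2% and 12.7% of all genes changed. At 120 ppm 1 rose and 3 fell, a share below the 74.8% of all genes that changed there. The median difference of the 7 genes was -0.64 at 10 ppm, -0.54 at 20 ppm and -0.38 at 40 ppm, and that of all genes was -0.02, -0.02 and 0.01. The medians at 120 ppm were -0.10 for the 7 genes and 0.15 for all genes. All these comparisons share the same 5 clean-air arrays. Gsta2 is counted as risen by its brighter probe set. With the mean of both its probe sets, the rise passed the threshold at 5 and 20 ppm and not at 10 or 40 ppm. At 120 ppm, where Gsta2 is not counted as changed, the mean of both fell by 0.74 (limma adjusted p = 0.00123).

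**Figure D2:**
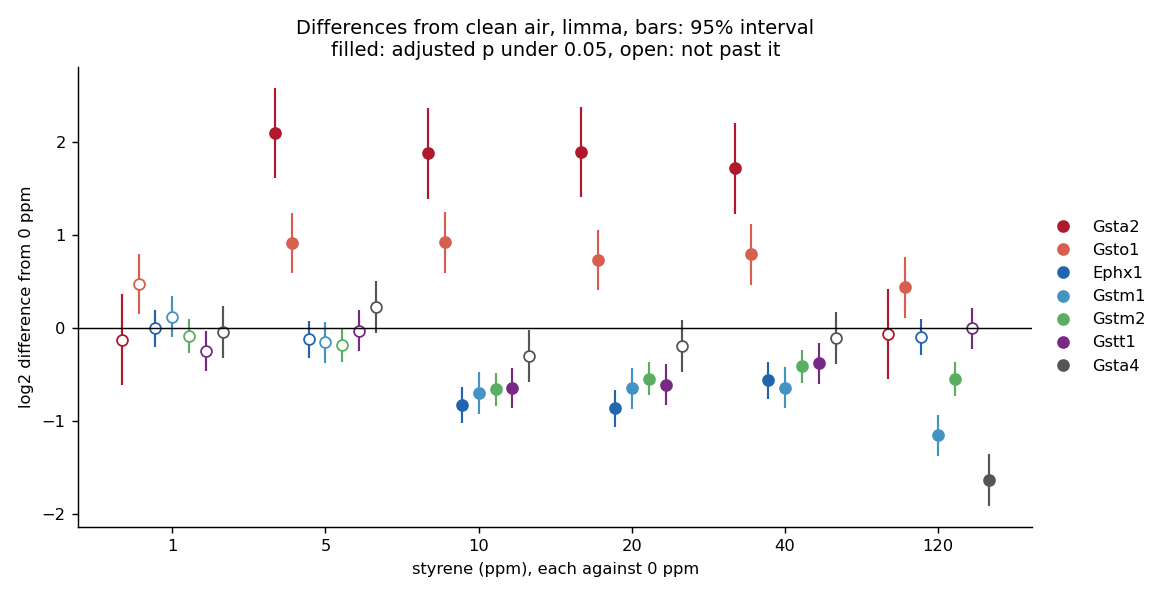
Log2 difference of each gene, by its brightest probe set, from clean air (vertical axis) at each styrene dose (horizontal axis). Points are limma estimates and bars their 95% intervals. Filled points have an adjusted p under 0.05: 2 at 5 ppm, 6 at each of 10, 20 and 40 ppm and 4 at 120 ppm.

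Ephx1 encodes microsomal epoxide hydrolase, the enzyme that turns styrene oxide into its glycol. Its promoter is shown because the gene had the largest fall among the 7 at 10 and 20 ppm. The window runs from 250 bases before to 50 after the RefSeq transcription start, is read 5′ to 3′ from the minus strand at chr1:181017520-181017819 (GRCm38.p6), and holds in capitals the matches on either strand to TATAAA, to the CCAAT box and to the sequence GGGCGG.
Ephx1 promoter: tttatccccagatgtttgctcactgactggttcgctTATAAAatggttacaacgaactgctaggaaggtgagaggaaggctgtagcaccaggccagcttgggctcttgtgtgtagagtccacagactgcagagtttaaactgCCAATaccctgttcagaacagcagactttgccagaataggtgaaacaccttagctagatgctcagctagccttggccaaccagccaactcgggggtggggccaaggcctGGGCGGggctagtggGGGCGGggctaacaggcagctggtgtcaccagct

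In clean air the 5 arrays of Ephx1 read 10.81, 10.73, 10.60, 10.53 and 10.51. At 1 ppm they read 10.67, 10.53, 10.90, 10.69 and 10.39, and at 5 ppm 10.57, 10.64, 10.39, 10.59 and 10.38. Both groups overlapped clean air. At 10 ppm the arrays read 9.89, 9.70, 9.96, 9.66 and 9.84, at 20 ppm 9.87, 10.0, 9.71, 9.67 and 9.64, and at 40 ppm 10.07, 10.14, 10.0, 10.16 and 10.01. Every array of these 3 doses lay below every clean-air array. The values at 120 ppm were 10.51, 10.64, 10.72, 10.20 and 10.63, and 4 of the 5 arrays lay at or above the lowest clean-air value.

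Ephx1 fell by 0.82 ± 0.10 log2 units at 10 ppm (1.77-fold, SE, limma adjusted p = 1.78e-07). The fall was 0.86 ± 0.10 at 20 ppm (1.81-fold, limma adjusted p = 9.95e-08) and 0.56 ± 0.10 at 40 ppm (1.48-fold, limma adjusted p = 0.000105). Against clean air, 120 ppm differed by -0.10 ± 0.10 (limma adjusted p = 0.373), with an interval from -0.29 to 0.10. The return was itself past the threshold: Ephx1 was 0.47 ± 0.10 higher at 120 ppm than at 40 ppm (1.38-fold, limma adjusted p = 8.49e-05). Ordered by level, the doses ran 0, 1, 120, 5, 40, 10 and 20 ppm, and of neighbours in that order 5 and 40 ppm alone differed (limma adjusted p = 0.00374).

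In whole-lung RNA, fewer cells of a type and less RNA per cell cannot be told apart. Club cell markers fell at 10, 20 and 40 ppm, where Ephx1 fell, and also at 120 ppm, where Ephx1 did not pass the threshold. Of the 9 measured, 4, 5, 7 and 8 fell at 10, 20, 40 and 120 ppm, and none rose. Of all genes, 11.8%, 13.2%, 12.7% and 74.8% changed at these doses. The mean of the 9 markers lay between 10.76 and 11.27 in clean air and between 10.53 and 11.18 at 10 ppm. It ran from 10.10 to 11.09 under 20 ppm, from 10.27 to 10.93 under 40 ppm and from 9.63 to 10.18 under 120 ppm. The mean of the 9 markers was lowest at 120 ppm. At that dose Ephx1 and Gstt1 stood near their clean-air levels, and Gstm1 and Gstm2 fell by 1.15 and 0.55. The secretoglobin Scgb1a1, the defining club cell marker, fell by 0.34 at 120 ppm, but it read above 13 on every array, where signal may saturate and a difference may be understated. The part of the club cell markers in the values of these genes was not tested.

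Gsta2, an alpha class transferase, had the largest rises among the 7 genes by the probe set that stands for it. Those rises took part in the choice of that set, and the 2 probe sets of Gsta2 did not move alike. The Gsta2 promoter is shown because, by that set, no other member rose as far. The window covers chr9:78347096-78347395 on the minus strand (GRCm38.p6), and capitals mark matches on either strand to TATAAA, to the CCAAT box and to the sequence GCGTG.
Gsta2 promoter: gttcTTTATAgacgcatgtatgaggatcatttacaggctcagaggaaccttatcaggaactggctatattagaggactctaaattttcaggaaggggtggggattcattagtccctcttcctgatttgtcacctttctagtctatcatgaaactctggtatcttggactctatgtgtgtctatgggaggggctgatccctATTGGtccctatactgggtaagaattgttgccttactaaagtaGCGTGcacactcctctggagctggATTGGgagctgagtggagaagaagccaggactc

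The probe set that stood for Gsta2 (1421041_PM_s_at) read 6.50, 6.63, 6.28, 6.49 and 6.08 in clean air and 6.29, 6.17, 6.90, 6.30 and 5.69 at 1 ppm. At 5 ppm it read 8.82, 8.51, 8.58, 8.52 and 8.03, with 10 ppm at 7.94, 8.59, 8.41, 8.40 and 8.03, and at 20 ppm 8.75, 8.17, 7.80, 8.37 and 8.34. At 40 ppm the arrays read 8.59, 8.75, 8.09, 7.63 and 7.51. Every array from 5 to 40 ppm lay above all arrays at 0 and 1 ppm. Its values at 120 ppm were 6.43, 6.02, 6.16, 5.80 and 7.23, which overlapped clean air. At that dose 1 of the 5 arrays exceeded its own highest nonspecific control, against 5 of 5 in clean air and 3 of 5 at 1 ppm.

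By this probe set Gsta2 rose by 2.10 ± 0.24 at 5 ppm (4.28-fold, limma adjusted p = 2.78e-07). It rose by 1.88 ± 0.24 at 10 ppm (3.68-fold, limma adjusted p = 6.76e-07), by 1.89 ± 0.24 at 20 ppm (3.71-fold, limma adjusted p = 6.86e-07) and by 1.72 ± 0.24 at 40 ppm (3.29-fold, limma adjusted p = 4.09e-06). The levels at 5, 10, 20 and 40 ppm formed a plateau in which no neighbour in the order of levels differed from the next past the threshold. Between 40 and 120 ppm the probe set fell by 1.78 ± 0.24 (3.44-fold, limma adjusted p = 6.29e-08), to a level that differed from clean air by -0.06 ± 0.24 (limma adjusted p = 0.813).

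The second Gsta2 probe set (1421040_PM_a_at) read 7.44, 7.89, 7.62, 7.57 and 7.44 in clean air, above the first on each array. At 5 ppm it read 7.93, 7.57, 7.78, 7.62 and 7.23, and at 10 ppm 6.77, 6.85, 6.94, 6.88 and 6.58. So where the first probe set rose, the second overlapped clean air at 5 ppm and lay wholly below it at 10 ppm. With limma p-values adjusted over 45037 probe sets, the second set differed by 0.03 ± 0.18 at 5 ppm (adjusted p = 1). It fell by 0.79, 0.57 and 0.76 (SE 0.18 each) at 10, 20 and 40 ppm, with limma adjusted p = 0.00373, 0.0423 and 0.00506. At 120 ppm it read 6.32, 6.06, 5.89, 6.27 and 6.29, a fall of 1.43 ± 0.18 from clean air (limma adjusted p = 2.23e-08). No array exceeded its highest nonspecific control there, so that the level at this dose is only bounded.

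Within each array, the first Gsta2 probe set minus the second was -1.20 ± 0.18 (SD, n = 5) in clean air. It was -1.20 ± 0.24 at 1 ppm and 0.87 ± 0.07 at 5 ppm. The higher doses of 10, 20, 40 and 120 ppm gave 1.47 ± 0.20, 1.26 ± 0.18, 1.28 ± 0.13 and 0.16 ± 0.51, the last from values mostly not above the nonspecific controls. At each dose from 5 to 120 ppm all 5 arrays lay outside the clean-air range. The two-sided exact permutation p was 0.00794 at each, the smallest that 5 against 5 arrays can give (adjusted p = 0.0257 over 42 tests). The 42 tests include Gsta2 minus Gsta4 and Gstm1 minus Gstm2, pairs chosen after their values were seen, which can lower the adjusted value. At 1 ppm the exact permutation p was 0.976. That the probe sets disagree was known when this test was chosen, so that the p-values describe the disagreement and are no independent evidence of it. The values show unequal change and not which probe set follows the Gsta2 transcript.

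The direction reported for Gsta2 rests on which probe set stands for it. The first set has the higher mean over all 35 arrays, yet it is the dimmer of the pair in clean air, so that its rise took part in its choice. By array design, probe sets with the suffix "_s_at" share probes between transcripts of different genes, and those with "_a_at" between transcripts of one gene. With the mean of both sets in place of the first, Gsta2 rose by 1.06 at 5 ppm (limma adjusted p = 0.00113) and by 0.66 at 20 ppm (limma adjusted p = 0.0218). The mean of both differed by 0.54 at 10 ppm (limma adjusted p = 0.0739) and 0.48 at 40 ppm (limma adjusted p = 0.122), and it fell by 0.74 at 120 ppm (limma adjusted p = 0.00123).

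**Figure D3:**
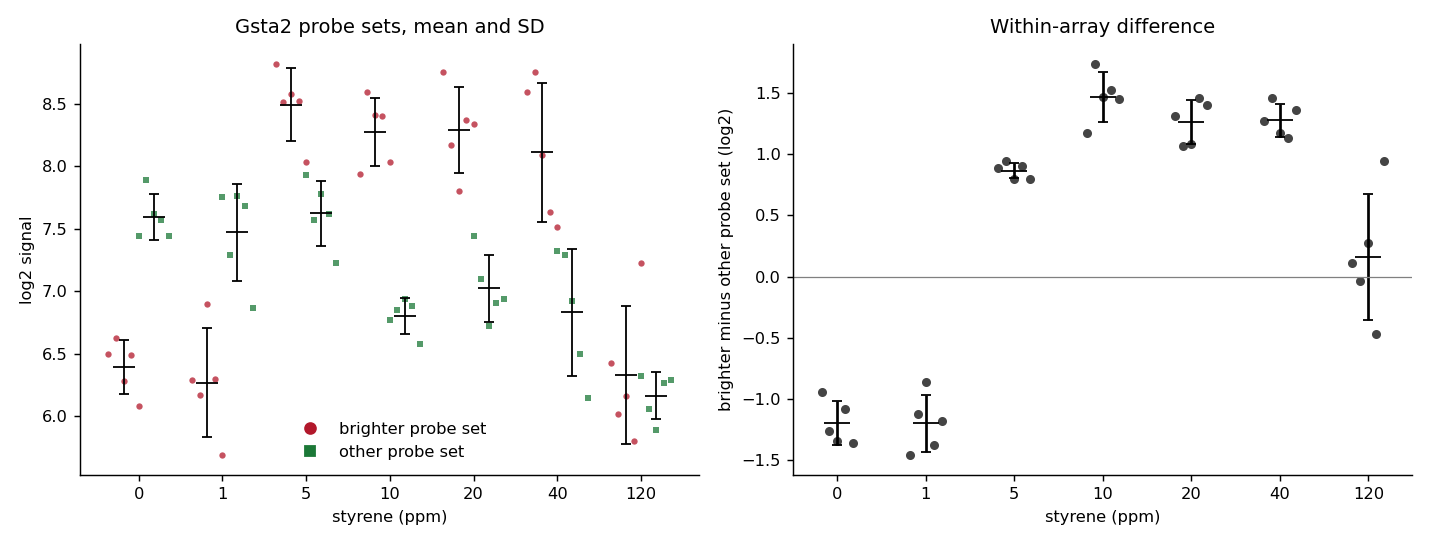
Left: log2 signal of both Gsta2 probe sets (vertical axis) by styrene dose in ppm, with circles for the set that stands for the gene and squares for the other. Right: the difference of the 2 sets within each array; bars are means and whiskers SD (n = 5 per dose), and the mean moves from -1.20 in clean air to 1.47 at 10 ppm.

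Gsta4 encodes the alpha class transferase that favours 4-hydroxynonenal, an aldehyde formed when membrane lipids are oxidised. In clean air its arrays read 10.17, 10.55, 10.26, 10.31 and 10.08. At 40 ppm they read 10.23, 10.61, 10.03, 10.13 and 9.87, which overlapped clean air. At 120 ppm they read 8.55, 8.33, 8.74, 8.42 and 9.19, each below every other array of the series. The other doses of 1, 5, 10 and 20 ppm ranged from 9.91 to 10.49, 10.34 to 10.61, 9.73 to 10.12 and 9.87 to 10.32.

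Gsta4 fell by 1.63 ± 0.14 at 120 ppm (3.09-fold, limma adjusted p = 2.10e-12) and lay 1.53 ± 0.14 below its 40 ppm level (2.88-fold, limma adjusted p = 1.36e-11). At 10 ppm the difference was -0.30 ± 0.14 (limma adjusted p = 0.179), which became -0.32 (limma adjusted p = 0.0375) when arrays were weighted by quality. At 5, 20 and 40 ppm the differences were 0.23, -0.19 and -0.10, none past the threshold. The step from 10 to 120 ppm was the single one in its order of levels at which neighbours differed (limma adjusted p = 2.22e-10).

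The alpha class genes were also set against each other. The within-array difference of Gsta2 (first probe set) minus Gsta4, a pair chosen after its values were seen, was -3.88 ± 0.14 (SD, n = 5) in clean air. At 5, 10, 20, 40 and 120 ppm it was -2.01 ± 0.22, -1.70 ± 0.27, -1.80 ± 0.30, -2.06 ± 0.36 and -2.31 ± 0.29. Each of these 5 groups lay wholly above clean air, by 1.56 to 2.18 log2 units in the mean. No p-value is given, since the pair was chosen for this difference and the Gsta2 probe set is the brighter one through its rise. At 120 ppm Gsta2 itself was above the nonspecific controls on 1 of 5 arrays, and the change there goes with the lower Gsta4.

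Gstm1 and Gstm2 encode mu class transferases, which act on epoxides among other electrophiles, and are direct neighbours in the mouse genome, with Gstm3 beyond Gstm2 and Gstm4 beyond Gstm1. The brighter Gstm1 probe set (1416416_PM_x_at) is of a type whose probes can also bind other transcripts, and mu class genes resemble each other in sequence, so that signal from close relatives cannot be told apart from that of Gstm1. The promoter of Gstm2 is shown beside that of Ephx1 as a second gene of the group that fell. It covers chr3:107986371-107986670 on the minus strand (GRCm38.p6), with matches to CCAAT in capitals.
Gstm2 promoter: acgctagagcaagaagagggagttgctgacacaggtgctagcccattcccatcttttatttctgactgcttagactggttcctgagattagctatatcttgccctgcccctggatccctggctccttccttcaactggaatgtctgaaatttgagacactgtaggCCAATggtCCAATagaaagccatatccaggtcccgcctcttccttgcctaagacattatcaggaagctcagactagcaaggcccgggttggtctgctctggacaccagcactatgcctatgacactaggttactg

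Gstm1 read 11.49, 11.54, 11.32, 11.30 and 11.18 in clean air, 11.53, 11.41, 11.62, 11.53 and 11.35 at 1 ppm and 11.35, 11.24, 11.08, 11.27 and 11.13 at 5 ppm. Both doses overlapped clean air. It read 10.52, 10.66, 10.78, 10.71 and 10.68 at 10 ppm, 10.81, 10.95, 10.60, 10.82 and 10.42 at 20 ppm and 10.97, 11.07, 10.67, 10.43 and 10.47 at 40 ppm. These 15 arrays all lay below the lowest clean-air value. The arrays at 120 ppm read 10.25, 10.16, 10.26, 10.02 and 10.38, below every array at 0 to 40 ppm.

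Gstm1 fell by 0.70 ± 0.11 at 10 ppm (1.62-fold, limma adjusted p = 1.90e-05), by 0.65 ± 0.11 at 20 ppm (1.57-fold, limma adjusted p = 5.75e-05) and by 0.64 ± 0.11 at 40 ppm (1.56-fold, limma adjusted p = 7.85e-05). The 120 ppm fall was 1.15 ± 0.11 (2.22-fold, limma adjusted p = 2.71e-11), which was 0.51 ± 0.11 lower than at 40 ppm (1.42-fold, limma adjusted p = 0.000107). The doses thus formed 3 levels, with 1, 0 and 5 ppm highest, 40, 20 and 10 ppm between and 120 ppm lowest, and the gaps between these levels passed the threshold (limma adjusted p = 0.00392 and 0.000391). A second probe set (1448330_PM_at) moved alike: it fell by 0.73, 0.64, 0.61 and 1.14 at 10, 20, 40 and 120 ppm, and its difference to the first changed by at most 0.04 (exact permutation p from 0.333 to 1). A further set (1425627_PM_x_at) fell at the same 4 doses, by 0.50 to 0.95, but at 120 ppm it exceeded the highest nonspecific control on 1 of 5 arrays. The fourth (1425626_PM_at) exceeded the highest nonspecific control on at most 1 of 5 arrays at any dose, and fell by 0.60 at 10 ppm on that dim scale (limma adjusted p = 0.0181). The first set minus this one changed by -0.26 at 20 ppm and -0.60 at 120 ppm (unadjusted exact permutation p = 0.00794 and 0.0159), and by -0.08 to -0.10 at the other doses.

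Gstm2 read 10.93, 11.06, 10.87, 10.76 and 10.73 in clean air and 10.21, 10.15, 10.33, 10.20 and 10.17 at 10 ppm. At 20 ppm it read 10.45, 10.38, 10.30, 10.27 and 10.23, at 40 ppm 10.61, 10.53, 10.45, 10.31 and 10.40, and at 120 ppm 10.42, 10.37, 10.46, 10.0 and 10.37. Every array of these 4 doses lay below every clean-air array. The ranges at 1 ppm (10.54 to 10.96) and 5 ppm (10.57 to 10.84) overlapped it.

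Gstm2 fell by 0.66 ± 0.09 at 10 ppm (1.58-fold, limma adjusted p = 1.51e-06), 0.54 ± 0.09 at 20 ppm (1.46-fold, limma adjusted p = 3.39e-05) and 0.41 ± 0.09 at 40 ppm (1.33-fold, limma adjusted p = 0.00128). At the highest dose it fell by 0.55 ± 0.09 (1.46-fold, limma adjusted p = 1.45e-06). From 40 to 120 ppm Gstm2 differed by -0.14 ± 0.09 (interval -0.31 to 0.04, limma adjusted p = 0.161). From 5 to 10 ppm it fell by 0.48 ± 0.09 (limma adjusted p = 0.000829).

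Gstm1 minus Gstm2 within each array, likewise chosen after its values were seen and given without a p-value, was 0.49 ± 0.05 (SD, n = 5) in clean air and 0.70 ± 0.07 at 1 ppm. All 5 arrays at 1 ppm lay above the clean-air range, and neither gene alone passed the threshold at that dose. At 5, 10, 20 and 40 ppm the difference was 0.52 ± 0.11, 0.46 ± 0.09, 0.39 ± 0.16 and 0.26 ± 0.19, and each of these groups overlapped clean air. At 120 ppm it was -0.11 ± 0.11, and all 5 arrays lay below clean air, by 0.60 in the mean.

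**Figure D4:**
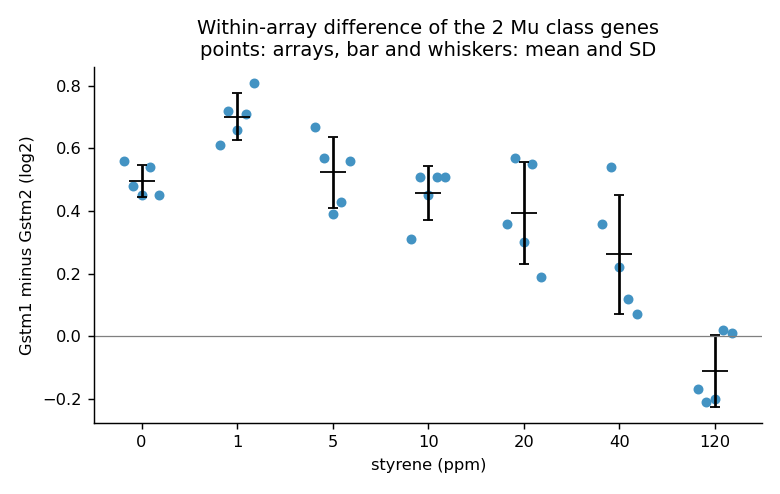
Log2 signal of Gstm1 minus that of Gstm2 on the same array (vertical axis) by styrene dose in ppm; points are arrays, bars means and whiskers SD (n = 5 per dose). The mean is 0.49 in clean air, 0.70 at 1 ppm and -0.11 at 120 ppm.

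Gsto1 encodes an omega class transferase, which reduces dehydroascorbate and methylated arsenic and forms few of the usual glutathione conjugates. Its promoter is shown because it was the second gene that rose from 5 ppm on. It covers chr19:47854723-47855022 on the plus strand (GRCm38.p6), with GGGCGG in capitals, and of the 4 promoters printed it alone has no match to CCAAT.
Gsto1 promoter: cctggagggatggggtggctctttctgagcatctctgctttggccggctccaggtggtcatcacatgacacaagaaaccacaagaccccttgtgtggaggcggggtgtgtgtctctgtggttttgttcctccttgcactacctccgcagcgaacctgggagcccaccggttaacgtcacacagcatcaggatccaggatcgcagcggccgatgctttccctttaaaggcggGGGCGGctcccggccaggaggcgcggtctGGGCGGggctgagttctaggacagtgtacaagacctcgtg

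Gsto1 read 11.14, 11.62, 11.55, 11.30 and 11.04 in clean air. At 1 ppm it read 12.11, 11.29, 11.93, 11.47 and 12.20, at 5 ppm 12.17, 12.57, 11.87, 12.40 and 12.23, and at 10 ppm 11.99, 12.22, 12.38, 12.14 and 12.53. At 20 ppm it read 12.04, 12.47, 11.83, 12.15 and 11.82, and at 40 ppm 12.0, 12.30, 12.04, 12.23 and 12.04. From 5 to 40 ppm all arrays lay above all clean-air arrays, and the 1 ppm group spread from within the clean-air range to the level of the higher doses. The 120 ppm arrays read 11.72, 11.76, 11.85, 11.44 and 12.07, of which 1 overlapped clean air. Most values at 5 to 40 ppm were above 12, where array signal can saturate and differences can be understated.

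Gsto1 rose by 0.92 ± 0.16 at 5 ppm (1.89-fold, limma adjusted p = 0.000435) and by 0.92 ± 0.16 at 10 ppm (1.89-fold, limma adjusted p = 9.03e-05). It rose by 0.73 ± 0.16 at 20 ppm (1.66-fold, limma adjusted p = 0.00147) and by 0.79 ± 0.16 at 40 ppm (1.73-fold, limma adjusted p = 0.000655). At 1 ppm the difference was 0.47 ± 0.16 (interval 0.15 to 0.80, limma adjusted p = 0.499). At 120 ppm Gsto1 rose by 0.44 ± 0.16 over clean air (1.35-fold, limma adjusted p = 0.0146). That call was lost without 0 ppm replicate 5 (0.36, limma adjusted p = 0.0514) and with array weights (0.40, limma adjusted p = 0.0516).

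Gsto1 fell by 0.36 ± 0.16 from 40 to 120 ppm (limma adjusted p = 0.0466), and the groups overlapped. This call was lost without any of 8 single arrays (40 ppm replicates 2, 3, 4 and 5 and 120 ppm replicates 1, 2, 3 and 4), with values from -0.43 to -0.27 over all 10 such omissions. It was also lost with centred arrays (limma adjusted p = 0.082), quantile normalization (0.0607), array weights (0.0956) and every probe set tested apart (0.0523). The second Gsto1 probe set (1456036_PM_x_at), with p-values adjusted over all probe sets, rose by 0.76, 0.73, 0.67, 0.63 and 0.33 at 5, 10, 20, 40 and 120 ppm (limma adjusted p = 0.0392 at 120 ppm), and from 40 to 120 ppm it differed by -0.30 (limma adjusted p = 0.0668). The gap between the 2 sets did not change past the adjusted threshold at any dose. It came nearest at 40 ppm (exact permutation p = 0.0238, adjusted p = 0.0666).

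Gstt1 encodes a theta class transferase, which acts on small halogenated compounds and epoxides. It read 11.05, 10.80, 10.90, 10.82 and 10.66 in clean air, 10.38, 10.04, 10.32, 10.24 and 10.03 at 10 ppm and 10.32, 10.30, 10.31, 10.0 and 10.27 at 20 ppm. At 40 ppm it read 10.65, 10.24, 10.50, 10.37 and 10.57, and at 120 ppm 10.97, 10.87, 10.98, 10.49 and 10.91. The arrays at 10, 20 and 40 ppm lay below clean air, the nearest by 0.01, and those at 120 ppm overlapped it. The ranges were 10.27 to 10.90 at 1 ppm and 10.74 to 10.94 at 5 ppm, and both overlapped clean air.

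Gstt1 fell by 0.64 ± 0.11 at 10 ppm (1.56-fold, limma adjusted p = 5.09e-05) and 0.61 ± 0.11 at 20 ppm (1.52-fold, limma adjusted p = 0.000121). The fall of 0.38 ± 0.11 at 40 ppm (1.30-fold, limma adjusted p = 0.0143) was lost without 40 ppm replicate 2 (-0.32, limma adjusted p = 0.0559) and with arrays centred on their median (-0.33, limma adjusted p = 0.0613). At 120 ppm Gstt1 differed from clean air by -0.002 ± 0.11 (interval -0.22 to 0.22, limma adjusted p = 0.987). It was 0.38 ± 0.11 higher than at 40 ppm (1.30-fold, limma adjusted p = 0.00236). Its means ran, from high to low, through 0, 120, 5, 1, 40, 20 and 10 ppm, and no neighbours in that order differed past the threshold.

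Against 40 ppm, 120 ppm changed 6 of the 7 genes, where 70.9% of all genes changed. Ephx1 and Gstt1 rose between these doses, and Gsta2, Gsta4, Gstm1 and Gsto1 fell, the call of Gsto1 being lost under the settings given above. Gstm2 did not pass the threshold. The median of the 7 was -0.36, and that of all genes was 0.14. The 4 genes that fell together at 10 ppm were thus split at 120 ppm, with Gstm1 falling further and Ephx1 and Gstt1 returning to the clean-air range.

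Across the 30 arrays from 0 to 40 ppm, the straight-line change with log2(dose + 1 ppm) passed the limma threshold for 6 of the 7 genes, where 26% of all genes did. Gsta2 rose by 0.41 ± 0.06 log2 units per doubling of dose plus 1 ppm (SE, limma adjusted p = 4.97e-06), or by 0.13 with the mean of both probe sets (limma adjusted p = 0.0245), and Gsto1 by 0.13 ± 0.03 (limma adjusted p = 0.0012). Ephx1 and Gstm1 each fell by 0.16 ± 0.02, Gstm2 by 0.10 ± 0.02 and Gstt1 by 0.09 ± 0.02 per doubling (limma adjusted p from 1.11e-06 to 0.0025). The slope of Gsta4 was -0.04 ± 0.02 (limma adjusted p = 0.278). A single slope describes these genes loosely, since Gsta2 and Gsto1 had their highest or nearly highest mean at 5 ppm. The means of Ephx1 were 10.64 in clean air, 9.81 at 10 ppm, 9.78 at 20 ppm and 10.08 at 40 ppm, and 40 ppm did not differ past the threshold from 10 or 20 ppm (limma adjusted p = 0.105 and 0.264).

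Without the 4 arrays that carried hepatocyte transcripts, a setting added after the data were seen, the counts of the 7 genes past the threshold were the same at 5, 10, 20 and 120 ppm. At 10 ppm the differences were then -0.87 for Ephx1, 1.87 for Gsta2, -0.73 for Gstm1, -0.69 for Gstm2, 0.98 for Gsto1 and -0.63 for Gstt1, each past the limma threshold. Gstt1 at 40 ppm was the exception, at -0.37 (limma adjusted p = 0.0883).

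RefSeq promoter windows of 300 bases (GRCm38.p6) were at hand for 6 of the 7 genes, Ephx1, Gsta2, Gstm1, Gstm2, Gsto1 and Gstt1, 7 windows in all since Gstm1 has 2. Searched on both strands, no window held TGACNNNGC, a core of the antioxidant response element, which 12.4% of all 32851 promoter windows hold. GCGTG, a core of the xenobiotic response element, was found for Gsta2 and in both Gstm1 windows (32.4% of all windows). TATAAA was found for Ephx1, Gsta2 and one Gstm1 window (13.6% of all), and GGGCGG for Ephx1 and Gsto1 (35.7% of all). CCAAT lay in the windows of all but Gsto1 (37.4% of all). The matches are of letters in these windows and say nothing of factors bound there.

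For each of the 7 genes, the genes with the most similar profile were sought among all 17097, as those with the smallest root mean square difference over the 35 arrays after centring each gene. Ephx1 was closest to Fam189a2 (0.15 log2 units), Tmem159 and Csad, and Fam189a2 differed from clean air by -0.70 at 10 ppm and 0.11 at 120 ppm. Gstm1 was closest to Kif13b (0.19), then to Cyp2f2 (0.20), the lung cytochrome that oxidises styrene, and Slc46a3. Gstm2 was closest to Plekhb1 (0.12), Inpp5k and Arpc1a, and Gstt1 to Man2b1 (0.13), Creg1 and Stmn2. Gsta4 was closest to Tusc3 (0.17), C2cd3 and Naa35, and Tusc3 differed by -1.55 from clean air at 120 ppm. There the mean of C2cd3 (5.04) lay below the highest nonspecific control (6.71 to 7.36) and that of Naa35 (7.32) within its range, so that no size is given for them.

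Of the risers, Gsta2 by its brighter probe set was closest to Afp (0.37), Xaf1 and Rtp4. No similar profiles were sought for its other probe set, which fell at 10, 20 and 40 ppm. Xaf1 and Rtp4 differed from clean air by 1.47 and 1.78 at 5 ppm. The clean-air mean of Afp (4.86) lay below the highest nonspecific control there (5.90 to 6.34), and its mean was 7.07 at 5 ppm, so that no size is given. Gsto1 was closest to Gm19935 (0.25), Tpm2 and Gsr, the gene of glutathione reductase (0.26). The distances for Gsta2 are larger than for the others, and so is its own SD over the arrays, 1.05 against 0.27 to 0.61. Likeness of profile over these arrays includes what the 120 ppm arrays share.

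Among 14 other glutathione transferase genes measured, of 21 listed, none changed at 1 or 5 ppm, and none rose at 10 or 20 ppm. At 10 ppm 3 fell: Gstk1, the kappa class enzyme of mitochondria and peroxisomes (by 0.95), Gstt3, the genomic neighbour of Gstt1 (by 0.46), and Gstm6. At 20 ppm 4 fell: Gstk1 (by 0.86), Gstt3 (by 0.44), Gstm6 and Gstm7. Gstm6 exceeded the highest nonspecific control on 1 of 5 arrays in clean air and Gstm7 on none, and neither did so on any array at 10, 20, 40 or 120 ppm, so that no size is given for them. At 40 ppm 4 fell, Gstk1 (by 1.03), Mgst1 (by 0.33), Gstm6 and Gstm7, and 3 rose, Mgst3 (by 0.57), Gstp3 (by 0.56) and Gstp1 (by 0.26). Of all genes, 11.8%, 13.2% and 12.7% changed at 10, 20 and 40 ppm. The median difference of the 14 genes was -0.20 at 10 ppm and -0.14 at 20 ppm, and that of all genes -0.02 at both doses. At 120 ppm, where 74.8% of all genes changed, 7 of the 14 fell and 6 rose. Those with the largest differences were Gstk1, which fell by 2.43, Gstp3, which rose by 1.71, Gstm5, which fell by 1.62 and exceeded the nonspecific controls there on 1 of 5 arrays, and Mgst3, a microsomal enzyme, which rose by 1.49. The 7 that fell also included Gstm6, Gstm7 and Gstm3. Gstm3 exceeded the highest nonspecific control on no array in clean air or at 120 ppm, so that no size is given. Gstm4, the neighbour of Gstm1 and named after its value was seen, rose by 1.30 at the dose where Gstm1 fell.

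Of 4 other epoxide hydrolase genes listed, 2 were measured, Ephx2, the soluble enzyme, and Lta4h, which makes leukotriene B4. Neither passed the threshold at 1 to 40 ppm, where Ephx1 fell at 10, 20 and 40 ppm. Both fell at 120 ppm, where 74.8% of all genes changed, Lta4h by 1.18. Ephx2 exceeded the highest nonspecific control on 1 of 5 arrays in clean air and at each of 5, 20 and 40 ppm. It did so on 2 of 5 arrays at 1 ppm and on none at 10 or 120 ppm. The level of Ephx2 is thus mostly only bounded, and a fall like that of Ephx1 could go unseen.

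Of 10 genes that supply and recycle glutathione, 1, 3, 2 and 4 rose at 5, 10, 20 and 40 ppm, and 1 fell at each of these doses. The shares of all genes changed there were 1.16%, 11.8%, 13.2% and 12.7%. Gclc, the catalytic subunit of the rate-limiting synthetic enzyme, rose by 0.78 at 10 ppm, 0.85 at 20 ppm and 0.52 at 40 ppm, and fell by 1.28 at 120 ppm. Gsr rose by 0.48, 0.54 and 0.64 at 10, 20 and 40 ppm and by 0.37 at 120 ppm. Cbs, which starts the path from homocysteine to cysteine, was the gene counted as fallen at 5, 10, 20 and 40 ppm, but it exceeded the highest nonspecific control on 1 of 5 arrays in clean air and at 5 ppm and on none at 10, 20 and 40 ppm, so that no size is given. At 120 ppm, where 74.8% of all genes changed, 4 of the 10 rose and 2 fell. Among them Chac1, which breaks glutathione down, rose by 1.87. Cth, which releases cysteine, fell to a level not above the nonspecific controls on any array.

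**Figure D5:**
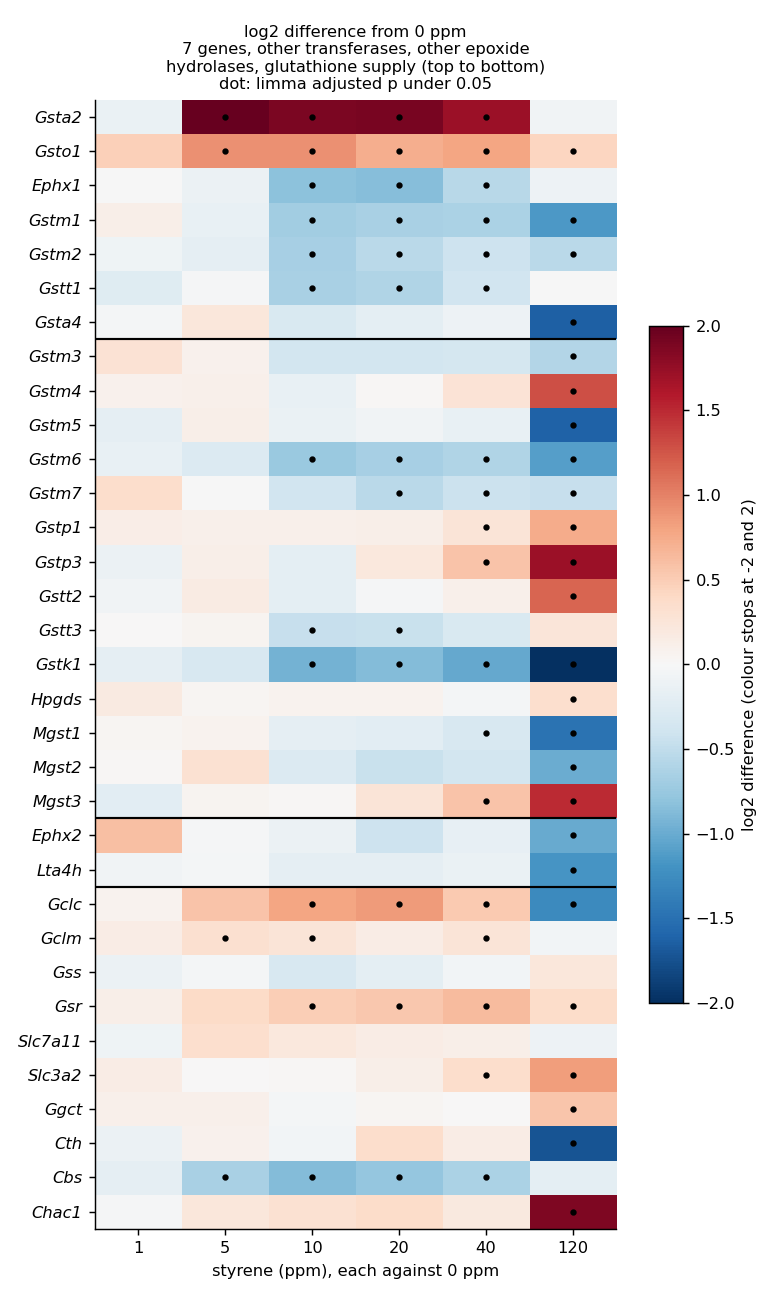
Log2 difference from clean air (colour, limited to -2 and 2) at each styrene dose (columns) for the 7 genes, 14 other transferases, 2 other epoxide hydrolases and 10 glutathione supply genes (rows, blocks from top to bottom), with dots for limma adjusted p under 0.05. Rows of the first block, each by its brightest probe set, show 2 genes red and 4 blue at 10, 20 and 40 ppm, with Gsta4 past the threshold at 120 ppm alone.

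Of 13 genes for mercapturate formation and conjugate export measured, of 17 listed, 1 rose at 5 ppm. At each of 10 and 20 ppm 2 rose and 2 fell, and at 40 ppm 1 rose and 1 fell. At 120 ppm 4 rose and 4 fell. The shares of all genes changed were 1.16%, 11.8%, 13.2%, 12.7% and 74.8% at 5, 10, 20, 40 and 120 ppm. The leucine aminopeptidase Lap3 rose by 1.10 at 10 ppm and the glutamyl transferase Ggt5 rose too, while Dpep1, a dipeptidase, fell by 0.81 and the exporter gene Abcc3 by 0.57. Ggt5 was above the nonspecific controls on 0 of 5 arrays in clean air and 5 of 5 at 10 ppm, so that its difference is measured on one side alone. At the highest dose the exporter gene Abcc4 fell, with 2 of 5 arrays above the nonspecific controls in clean air and none at 120 ppm, and Ggt6 rose, with 0 of 5 in clean air and 2 of 5 at 120 ppm.

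Several transferase genes are known targets of the factor NRF2. Of 9 NRF2 control and marker genes measured, of 10 listed, 3 rose at 5 ppm, 3 at 10 ppm and 6 at each of 20 and 40 ppm, and none fell at these doses. The shares of all genes changed were 1.16%, 11.8%, 13.2% and 12.7% at 5, 10, 20 and 40 ppm. Gpx2 rose by 0.71 at 5 ppm and 0.87 at 40 ppm. Nqo1 rose by 0.70 and 0.77, from a clean-air level above the nonspecific controls on 1 of 5 arrays. At 120 ppm, where 74.8% of all genes changed, 4 of the 9 rose and 4 fell. Among those that fell was Nfe2l2, which encodes NRF2 itself, by 1.54. Of the 7 genes, Gsta2 (first probe set) and Gsto1 rose at 10, 20 and 40 ppm, and Ephx1, Gstm1, Gstm2 and Gstt1 fell. The part of NRF2 in these values was not tested.

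Of the cytochrome genes that form styrene oxide, Cyp2f2 fell by 0.54, 0.66, 0.69 and 0.80 at 10, 20, 40 and 120 ppm, from levels over 12, where differences may be understated. Cyp2e1, also a major liver gene, differed by 1.13 at 1 ppm and -0.13 at 40 ppm, neither past the threshold, and fell at 120 ppm, where no array exceeded the highest nonspecific control.

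Of 8 goblet cell markers 1 rose at 5 ppm, 4 at 10 ppm and 2 at each of 20 and 40 ppm. Of all genes, 1.16%, 11.8%, 13.2% and 12.7% changed at these doses. The mean of the goblet cell markers lay between 4.84 and 5.69 in clean air and between 6.90 and 7.85 at 10 ppm. At 120 ppm, where 74.8% of all genes changed, 3 of them rose and 1 fell. At that dose 5 of 8 alveolar macrophage markers fell and none rose, and 5 of 7 alveolar type 1 cell markers fell and 2 rose. The part of these cell types in the values of the 7 genes was not tested.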

How the data were processed

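Lung RNA of 35 samples was measured on 1 array each, with 7 doses and 5 arrays per dose. The authors deposited log2 probe set values (2.4 to 14, 0 missing). RMA and Partek are named in the submitters' processing notes, whose settings the labels do not state, nor scan dates, plates or chambers, so that no such batch could be tested. The table held 45141 probe sets, 104 of them controls. Of the rest, 28898 carried 1 gene symbol in the annotation and 551 several. The latter and those without a symbol stood for no gene.

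A mean for each dose was estimated from the 35 arrays by limma 3.58.1 under R 4.3.3, with 28 residual degrees of freedom and 4.617 added by eBayes. P-values were two-sided and Benjamini-Hochberg adjusted over 17097 genes, with a threshold of 0.05. The slope used the 30 arrays at 0 to 40 ppm. Within-array differences were compared by exact permutation, with 42 tests adjusted together, those of the pairs of different genes included. Fold changes are powers of 2 of log2 differences, intervals are at 95%, and no counts lie behind the values, so that the number of arrays limits the precision. The scripts were tested on simulated data.

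The 7 genes, the other lists and the rules were chosen with earlier results of these data known. The 7 genes were all named, as were, per list and comparison, some of those past the threshold with the largest difference (at most 4). Alternatives covered the choice of probe set, filter, normalization, variance model, weights, arrays in the fit, replicate block and single arrays left out. The list symbols that the annotation does not name were not analysed here. Promoter sequences are from RefSeq (GRCm38.p6). Figures were drawn with Python 3.11.15 and matplotlib 3.10.9.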

Additional observations from a re-analysis of the deposited data

Results flagged for a closer look

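Of 49 sets of 5 arrays (7 genes at 7 doses), 3 held an array whose gap to its nearest neighbour took over 0.71 of the range of the set, which chance gives in about 1 of 20 sets. Replicate 4 at 120 ppm was the lowest for Gstm2, at 10.0 against 10.37 to 10.46 on the other arrays (gap ratio 0.804). The same array was the lowest for Gstt1, at 10.49 against 10.87 to 10.98 (gap ratio 0.776). Replicate 4 at 20 ppm was the lowest for Gstt1, at 10.0 against 10.27 to 10.32 (gap ratio 0.844). At 120 ppm without replicate 4, Gstt1 differed from clean air by 0.09 in place of -0.002, neither past the limma threshold, and Gstm2 remained past it. The cause of the low values was not tested.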

How the results depend on the processing

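Under the alternatives, the counts of the 7 genes past the threshold stayed at 0 at 1 ppm, 2 at 5 ppm and 6 at 20 ppm, and ran from 5 to 7 at 10 ppm, 5 to 6 at 40 ppm, 3 to 5 at 120 ppm, 5 to 6 at 120 against 40 ppm, and 4 to 6 for the slope. Counts of all genes moved more. With every probe set tested apart, the counts are of 45037 probe sets and not of 17097 genes, and cannot be set against the counts of genes. They were 3394 (10 ppm), 4012 (20 ppm), 3891 (40 ppm), 30146 (120 ppm), 27506 (120 against 40 ppm) and 9548 (slope). With array weights the counts of genes were 43 (1 ppm), 321 (5 ppm), 3586 (10 ppm), 4061 (20 ppm) and 3883 (40 ppm). Without the hepatocyte-positive arrays they were 3 (1 ppm), 1326 (20 ppm) and 1249 (40 ppm). The slope over all 7 doses gave 10871. At 1 ppm the count was 1 in the fit without 120 ppm and 1 without the arrays numbered 15, and it ran from 0 to 6 with single arrays left out (6 without 1 ppm replicate 2, 1 without 1 ppm replicate 5). At 120 ppm 7342 genes were higher and 5450 lower. Without the dimmest 33.3% of genes these were 4217 and 5288, and the median of all genes moved from 0.15 to -0.20. With arrays centred on their median it was 0.24, and with repeated quantile normalization 0.10.

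Of 1330 single-gene values under an alternative, 1278 kept their direction and their side of the threshold, 25 lost the call, 3 gained it and 24 changed sign. None of the 24 passed the threshold. Gsta2 at 120 ppm was 0.01969 with centred arrays and 0.4117 after quantile normalization. Gstt1 at 120 ppm was 0.08167 with centred arrays, 0.08124 with array weights, 0.01385 after quantile normalization and 0.007307 without the hepatocyte-positive arrays. Ephx1 at 1 ppm was 0.01909 after quantile normalization, 0.03961 with array weights and 0.05979 without the arrays numbered 15. Gsta2 at 1 ppm was 0.02084 without those arrays, and Gsta4 at 1 ppm was 0.04872 without the hepatocyte-positive arrays. With single arrays left out, the ranges were -0.06566 to 0.05979 (Ephx1, 1 ppm), -0.2833 to 0.02084 (Gsta2, 1 ppm), -0.1029 to 0.04153 (Gsta4, 1 ppm), -0.07276 to 0.02294 (Gstt1, 5 ppm), -0.04754 to 0.08588 (Gstt1, 120 ppm), -0.2894 to 0.06754 (Gsta2, 120 ppm) and -0.0893 to 0.06149 (Gsta2 probe set difference, 1 ppm).

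Slopes on linear dose kept their sign but lost the call for Gsto1 (0.010, adjusted p = 0.131) and Gstt1 (-0.009, adjusted p = 0.0729). Over all 7 doses Gsta2 (adjusted p = 0.202), Gsto1 (0.0625) and Gstt1 (0.373) lost it, and Gsta4 gained it (-0.18). Same-numbered arrays did not deviate together in every pair (2 to 4 of 5 pairs per dose correlated above 0.1), so the numbers are not taken as pairs. Replicate 1 did correlate with clean-air replicate 1 at every dose (0.15 to 0.506), and replicate 5 with clean-air replicate 5 (0.118 to 0.535). For replicates 2, 3 and 4 the values ran from -0.443 to 0.212. Whether the number stands for a shared order or batch was not tested. With the replicate number as a block, Gsto1 at 120 against 40 ppm lost its call (-0.36, limma adjusted p = 0.0534), and no other call of the 7 genes changed. The changes of the Gsta2 probe set difference under the block were 2.06, 2.67, 2.46, 2.48 and 1.36 at 5, 10, 20, 40 and 120 ppm, each with an exact sign-flip permutation p = 0.0625, the smallest that 5 pairs can give. Where no value above shows it, the cause was not tested.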
